A study of Mus musculus with 3 samples.

Results

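Cholesterol synthesis, its control by SREBP and LXR, and cholesterol efflux and storage were followed through 38 genes in single cells of the mouse suprarenal aorta. The 38 genes were chosen by name for their place in these pathways, with no threshold on any value, and all 38 were among the 27998 genes counted. By role, 18 encode enzymes of sterol synthesis, 6 control the SREBP pathway, 4 belong to the fatty acid arm, 2 encode the LXR receptors, 4 are efflux genes or other LXR targets, and 4 act in the lysosome or in cholesterol esterification.

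The aneurysm library held cells pooled from 4 Apoe-/- mice on a C57Bl/6 background that ate a Western diet, were exposed to cigarette smoke for 16 weeks and had measurable aneurysms. The room air library held cells pooled from 5 Apoe-/- mice on the same diet for 16 weeks without smoke. The control library held cells pooled from 5 C57Bl/6 mice on chow. In each group, CD45+CD31- leukocytes and CD45-CD31+ cells were sorted together and made into 1 droplet library. Smoke-exposed mice without a measurable aneurysm were not analysed here. With 1 library per group no difference between groups could be tested, and genotype and diet cannot be told apart in the comparison of room air with control, nor smoke and aneurysm in the comparison of aneurysm with room air. Mice were chosen for their aneurysms, so the aneurysm library does not stand for all smoke-exposed mice.

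As background, cells make cholesterol from acetyl-CoA through the mevalonate pathway. When sterols in the endoplasmic reticulum are scarce, Scap escorts SREBP2 out of the endoplasmic reticulum, and the processed factor switches on the synthesis enzymes; Insig proteins hold Scap back when sterols are plentiful. Oxysterols and some synthesis intermediates activate LXR, which turns on the efflux transporters, Srebf1 and fatty acid desaturation. Macrophages of the atherosclerotic wall take up lipoprotein cholesterol, free it in the lysosome, esterify it and export it. Apolipoprotein E, which the Apoe-/- mice lack, is itself an acceptor that macrophages secrete.

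Promoters are shown for 3 of the genes that the results below return to, a synthesis gene whose transcript differed between macrophage clusters, one that differed between dendritic cells, and an efflux transporter. Each line is the 250 bases before the gene's start in RefSeq for GRCm38.p6, read 5′ to 3′ on the gene's strand. They lie at chr13:119690101-119690350 on the plus strand for Hmgcs1, chr13:8885356-8885605 on the plus strand for Idi1, and chr4:53159896-53160145 on the minus strand for Abca1. Capitals mark matches, on either strand, to 4 short motifs. These are the sterol element TCACNCCAC and the NF-Y box CCAAT. The others are the E box CACGTG, and the nuclear receptor core GGTCA that LXR shares with related receptors.
Hmgcs1: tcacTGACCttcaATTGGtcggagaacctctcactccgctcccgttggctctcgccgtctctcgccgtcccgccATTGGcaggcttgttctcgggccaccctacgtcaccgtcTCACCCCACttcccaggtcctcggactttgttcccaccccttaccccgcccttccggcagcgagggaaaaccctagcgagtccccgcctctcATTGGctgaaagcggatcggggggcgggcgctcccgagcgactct
Idi1: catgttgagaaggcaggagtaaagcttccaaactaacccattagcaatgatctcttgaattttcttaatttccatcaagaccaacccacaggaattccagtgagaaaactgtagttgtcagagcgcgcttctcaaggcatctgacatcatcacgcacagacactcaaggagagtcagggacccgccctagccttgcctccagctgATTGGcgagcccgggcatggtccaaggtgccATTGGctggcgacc
Abca1: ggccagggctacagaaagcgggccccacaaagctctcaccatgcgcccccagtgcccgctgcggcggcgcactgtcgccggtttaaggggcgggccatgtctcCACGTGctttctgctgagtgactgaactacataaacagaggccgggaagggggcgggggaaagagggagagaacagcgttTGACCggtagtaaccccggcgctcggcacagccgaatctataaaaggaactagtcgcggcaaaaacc
The Hmgcs1 promoter held the sterol element beside 3 NF-Y boxes, which read ATTGG here because they lie on the other strand, and 1 receptor core, TGACC on the other strand. Idi1 held 2 NF-Y boxes in the same orientation. Abca1 held an E box and a receptor core, the core on the other strand as TGACC. Of the 38 genes, 30 had a promoter in the RefSeq table. The NF-Y box was present in 25 of the 30, and in 14 of the 15 synthesis genes, against 37.5% of all genes with a promoter. The sterol element was present in 1 of the 30, Hmgcs1, against 1.22% of all genes. The E box was present in 6 of the 30, against 6.86% of all genes. The receptor core was present in 12 of the 30, against 38.4%. Its direct repeat with the DR4 spacing that LXR prefers was present in 0 of the 30, against 0.0703%. Only repeats with an exact match in each core were counted. In the Abca1 promoter the core TGACC is followed at that spacing by TAACC, which differs from it by 1 base and was not counted. A match describes the letters of this window and is not evidence of a bound site.

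The files held 2842, 1851 and 782 cell barcodes in the aneurysm, room air and control libraries, and 2775, 1821 and 773 cells were kept. Median unique molecular identifiers (UMIs, each standing for 1 captured transcript) per barcode were 4476, 3884 and 2681, so the control library was the smallest and the shallowest. Viability before loading was 94%, 91% and 73%. Apoe, which checks the genotype, averaged 22.7 UMIs per 1000000 in aneurysm macrophage-like cells, 24.6 in room air cells and 21040 in control cells. Cells were clustered without the 38 genes, related pathway genes or Apoe, and clusters were named from markers; a class called macrophage-like held 687, 580 and 279 cells. Levels are summed UMIs of a gene per 1000000 UMIs of the class (CPM), with exact Poisson 95% intervals, and ratios of levels carry exact conditional binomial 95% intervals. Both cover counting error only, not differences between mice or libraries. A gene was compared where both libraries had at least 25 cells and the gene at least 20 UMIs over both, and "past 1.5-fold" is a rule of size, not a test. RNA released from other cells also gives UMIs: from markers of other classes it made up at most 33.4%, 39.6% and 14.7% of the UMIs of aneurysm, room air and control macrophage-like cells, an upper estimate because leftover doublets count in it.

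Macrophage-like cells of room air mice had far more transcript of the exporter Abcg1, the LXR receptor Nr1h3, the desaturases Scd1 and Scd2 and the esterifying enzyme Soat1 than those of control mice, while the synthesis enzymes as a group were close to equal. Of the 38 genes, 34 passed the UMI minimum in this comparison; 13 were higher and 5 lower past 1.5-fold. Among all 9535 genes compared, 25.4% were higher and 13.9% lower past the same fold. With free RNA, described above, subtracted at the class's own estimated share, 8 were higher and 10 lower. The median log2 ratio was 0.37 over the 34 genes and 0.13 over all genes. The 2 libraries differed in which macrophages they held: all 10 genes of a lipid-associated macrophage list (Spp1, Gpnmb and others) were higher in room air, with a summed level of 17280 against 1730 CPM, and all 10 of a resident macrophage list (Lyve1, Folr2 and others) were lower, 2074 against 14620 CPM. The part of this shift in the levels below was not tested; the resident-type cells are compared on their own further down.

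**Figure D1:**
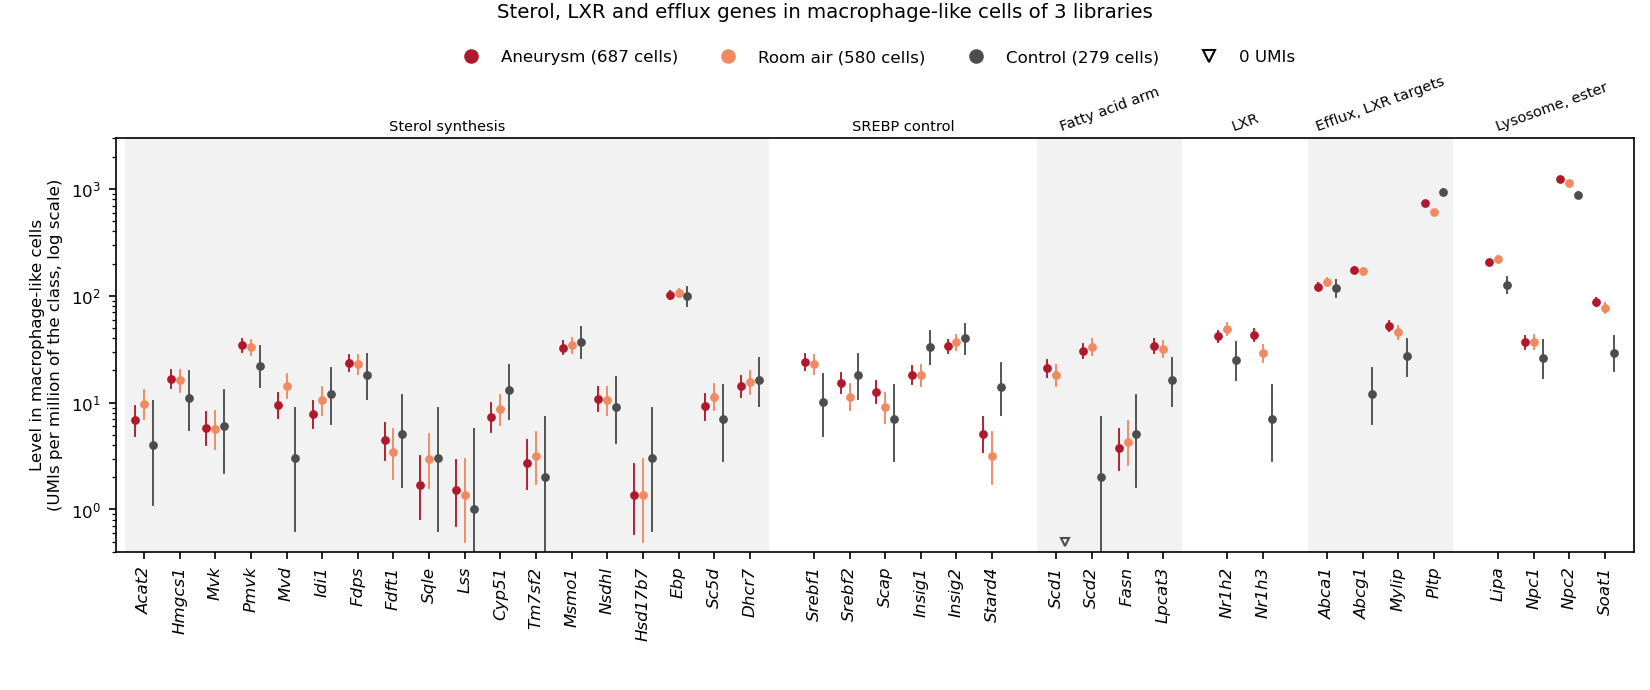
Level of each of the 38 genes in macrophage-like cells (UMIs per 1000000 of the class, log axis) in the aneurysm, room air and control libraries, grouped by role; lines are exact Poisson 95% intervals, and the open triangle marks a count of 0. Abcg1 stood at 173 and 170 CPM in the aneurysm and room air libraries and at 12.1 CPM in control, while Ebp, at 102, 107 and 99.8 CPM, was nearly level.

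Abcg1 (chr17:31057675-31117988, mm10, plus strand) encodes a transporter that passes cholesterol to high-density lipoprotein. Its level was 173 CPM in aneurysm macrophage-like cells (95% interval 163 to 184), 170 in room air cells (158 to 183) and 12.1 in control cells (6.25 to 21.1), from 1014, 747 and 12 UMIs. The aneurysm and room air intervals overlapped, and both lay far above control. Room air was 14.1-fold above control (8.01 to 27.4), and after subtraction of the estimated free RNA the ratio was 13.5. The 747 room air UMIs came from 312 of 580 cells. Abca1 (chr4:53030787-53159895), which loads cholesterol onto apolipoprotein A-I, did not show this difference, with 121, 136 and 118 CPM in the aneurysm, room air and control libraries. The 2 exporters thus differed in this class: the room air level of Abcg1 was above the control interval and that of Abca1 was inside it.

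Nr1h3 (chr2:91184061-91202834), which encodes LXR alpha, stood at 43.2 CPM in aneurysm cells, 28.9 in room air cells and 7.05 in control cells. Room air was 4.10-fold above control (1.93 to 10.4), resting on 7 control UMIs, and 3.40-fold above it after free RNA was subtracted. Nr1h2, which encodes LXR beta, was at 41.7, 49.0 and 25.2 CPM, a ratio of 1.94 for room air over control (1.28 to 3.07). The Nr1h2 ratio after subtraction was 1.44 at the class's own share, under 1.5-fold, and 1.64 at the share estimated in B cells.

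Among other LXR targets, Mylip, which encodes a ubiquitin ligase for lipoprotein receptors, was at 52.1, 45.8 and 27.2 CPM in aneurysm, room air and control cells (room air over control 1.68, 1.12 to 2.62). Subtracting free RNA gave a Mylip ratio of 1.25 at the class's own share and 1.43 at the B cell share, both under 1.5-fold. Pltp (chr2:164839518-164857711), which encodes phospholipid transfer protein, ran the other way, at 743, 615 and 930 CPM. Room air was 1.51-fold below control (1.40 to 1.63), whereas in resident-type cells, described further down, its room air level was above control. The exons of Pltp overlap those of Ctsa on the other strand, as do those of Lpcat3 with Emg1, Srebf1 with Rai1 and Npc1 with Rmc1, and no source used here says whether counting used strand.

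Before free RNA was subtracted, the 4 genes of the fatty acid arm had the highest median log2 ratio of room air over control of the 6 roles. It was 1.79 with Scd1 at its bound, with 3 higher and 0 lower past 1.5-fold. With free RNA subtracted at the class's own share, the LXR receptors Nr1h3 and Nr1h2, with ratios of 3.40 and 1.44, had a higher median than these 4 genes. Scd2 (chr19:44293674-44306864), a stearoyl-CoA desaturase, was at 30.7 CPM in aneurysm cells, 33.3 in room air cells and 2.02 in control cells. The room air to control ratio was 16.5 (4.49 to 138), with 2 control UMIs. Scd1 (chr19:44394455-44407879), its neighbour and paralog, with which it could exchange reads where their sequences match, was at 21.0 and 18.2 CPM in the aneurysm and room air libraries, and 0 UMIs were counted in control. Against a floor of 3 counts in the control class, room air was 6.03-fold higher, a value that leaves out the counting error of the room air count. Free RNA accounted for up to 59.7% of the room air level of Scd1 and 41.7% of that of Scd2. Lpcat3, which puts polyunsaturated chains into phospholipids, was at 34.0, 31.9 and 16.1 CPM (room air over control 1.98, 1.18 to 3.56), a ratio of 1.45 with free RNA subtracted at the class's own share, under 1.5-fold, and 1.67 at the B cell share. Fasn, the fatty acid synthase, was low throughout, at 3.76, 4.33 and 5.04 CPM, and was not past 1.5-fold.

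Of the 4 genes of the lysosome and of esterification, 2 were higher past 1.5-fold, Soat1 and Lipa. Soat1, which encodes the enzyme that esterifies cholesterol for storage, was at 87.4 CPM in aneurysm cells, 77.0 in room air cells and 29.2 in control cells. Room air was 2.63-fold above control (1.80 to 3.99), and 2.10-fold with free RNA subtracted at the class's own share. Lipa, lysosomal acid lipase, was at 205, 223 and 127 CPM (room air over control 1.76, 1.46 to 2.13), a ratio of 1.43 at the class's own share, which is under 1.5-fold, and 1.56 at the B cell share. Npc1 and Npc2, which carry cholesterol out of the lysosome, stayed under 1.5-fold, with Npc2 at 1228, 1142 and 884 CPM and Npc1 at 36.9, 37.1 and 26.2 CPM. The summed level of these 4 genes was 1479 CPM in the room air library, against 1066 CPM in the control library.

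The synthesis enzymes showed no common direction. Of 18, 14 passed the UMI minimum; 3 were higher and 1 lower past 1.5-fold, with a median log2 ratio of 0.15 against 0.13 for all genes. Mvd, which makes isopentenyl pyrophosphate, was at 9.56, 14.4 and 3.02 CPM in aneurysm, room air and control cells (room air over control 4.75, 1.55 to 23.6, from 3 control UMIs). Acat2, the thiolase at the start of the pathway, was at 9.79 CPM in room air and 4.03 in control (2.43, 0.883 to 9.32). Sc5d, the sterol C5 desaturase, was at 11.4 and 7.05 CPM (1.61, 0.728 to 4.22), and its ratio was 1.06 with free RNA subtracted at the class's own share. Cyp51, lanosterol demethylase, was at 8.65 CPM in room air and 13.1 in control, 1.51-fold lower (0.74 to 2.91), and its exons overlap Akap9 on the other strand. The intervals of Acat2, Sc5d and Cyp51 include no difference. Summed over the 18 genes the level was 312 CPM in room air and 273 in control, a ratio of 1.14 (1.00 to 1.31), and this sum changed direction when free RNA was subtracted, with a log2 ratio of -0.29 against 0.19. Sqle, Lss, Tm7sf2 and Hsd17b7 had too few UMIs to compare.

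Of the 6 SREBP control genes, all of which passed, 1 was higher and 3 were lower past 1.5-fold. Srebf1, an LXR target that encodes SREBP1, was at 24.2, 22.8 and 10.1 CPM in aneurysm, room air and control cells (room air over control 2.26, 1.18 to 4.86). Stard4, a sterol carrier and SREBP target, was at 5.12, 3.19 and 14.1 CPM, 4.42-fold lower in room air than in control (1.96 to 10.0). Insig1, also an SREBP target, was at 18.3, 17.99 and 33.3 CPM, 1.85-fold lower in room air (1.19 to 2.81). Srebf2, which encodes SREBP2, was at 15.4, 11.4 and 18.1 CPM, 1.59-fold lower with an interval from 0.875 to 2.78 that includes no difference. With free RNA subtracted at the class's own share the ratios were 1.64 for Srebf1, 0.0509 for Stard4, 0.40 for Insig1 and 0.328 for Srebf2.

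**Figure D2:**
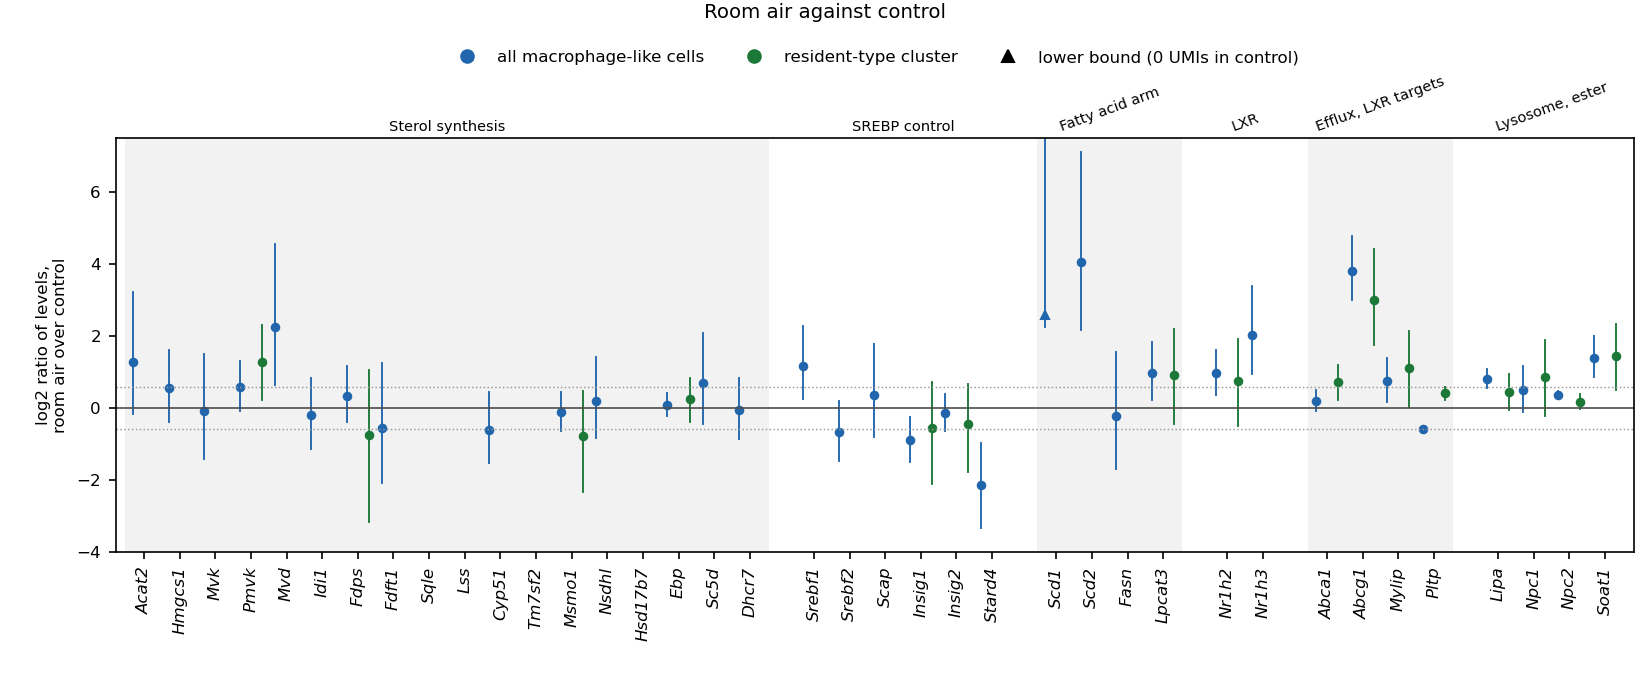
Log2 ratio of the level in room air to that in control for each gene with at least 20 UMIs, in all macrophage-like cells and in the resident-type cluster; lines are 95% counting intervals, dotted lines mark 1.5-fold, and the triangle is a lower bound because control had 0 UMIs. Abcg1 was 14.1-fold and 8.02-fold higher in the class and in the resident-type cluster, while Pltp was lower in the class and higher in the cluster.

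Resident-type cells (Lyve1, Folr2, Cd209f) were compared on their own, since they made up 261 of the 279 control macrophage-like cells and 54 of the 580 room air cells. Of the 38 genes, 16 passed in this cluster; 8 were higher and 2 lower past 1.5-fold in room air than in control, where 14.8% of 5544 genes were higher and 14.8% lower. The median log2 ratio was 0.58 over the 16 and 0.01 over all genes. Abcg1 was at 117 CPM in aneurysm cells, 70.2 in room air cells (42.3 to 110) and 8.75 in control cells (3.78 to 17.2), a room air to control ratio of 8.02 (3.35 to 21.2). Free RNA could account for up to 75.7% of that room air level, and the ratio was 2.82 after subtraction at this cluster's own estimated share and 5.64 at the share estimated in B cells. Abca1 was at 172, 199 and 121 CPM, and room air was 1.64-fold above control (1.16 to 2.30), while over the whole class it was 1.15-fold. After subtraction the Abca1 ratio in resident-type cells was 1.42 at the cluster's own share, under 1.5-fold, and 1.53 at the B cell share. Soat1 was at 61.2, 73.9 and 27.3 CPM (room air over control 2.70, 1.42 to 5.07). Mylip was at 54.3, 51.7 and 24.1 CPM (2.15, 1.02 to 4.39).

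The mevalonate enzyme Pmvk, phosphomevalonate kinase, was at 55.4 CPM in room air resident-type cells and 23.0 in control cells (2.41, 1.16 to 4.91). The other genes past 1.5-fold had intervals that include no difference. Among them Nr1h2 was at 36.9 CPM in room air and 21.9 in control, and Npc1 at 48.0 and 26.2. Lpcat3 was at 33.2 and 17.5 CPM, and the 2 lower genes were Msmo1, 22.2 and 38.3, and Fdps, 11.1 and 18.6. At the cluster's own free RNA share the ratios of Lpcat3 and Nr1h2 were 1.34 and 0.942, under 1.5-fold, and that of Fdps was 0.0215. Fdps, at 23.0 CPM in room air and 18.1 in control, had been on the other side of control over the whole class. Pltp was at 1444, 1318 and 988 CPM in aneurysm, room air and control cells, 1.33-fold higher in room air (1.18 to 1.51). Its log2 ratio, 0.42 here, was -0.45 when coarser clustering merged the C1q-high cells into this cluster. The room air resident-type cells carried more of the lipid-associated list, 3863 against 1501 CPM summed, and less of the resident list, 10610 against 15610 CPM, and the part of this in the ratios was not tested. When the genes left out of clustering were let back in, control resident-type cells separated from those of the Apoe-/- libraries.

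Inside the aneurysm and room air libraries 3 macrophage-like clusters could be set against each other, so that both sides of each ratio come from 1 library. A lipid-associated-type cluster (Spp1, Gpnmb, Mmp12) held 304 aneurysm and 202 room air cells, a C1q-high cluster 291 and 324, and the resident-type cluster 92 and 54. The C1q-high cluster is the one that reached neither list score, and C1q does not set it apart from resident-type cells. Its C1qa level was 4872 CPM in aneurysm and 5032 in room air, below the 7309 and 7693 of the resident-type cluster. In the lipid-associated-type cluster C1qa was at 3444 and 3840 CPM. The lipid-associated-type cluster had the most Abcg1 and Nr1h3 of the 3 in both libraries. Against the C1q-high cluster, 13 of 34 genes that passed were higher and 3 lower past 1.5-fold in the aneurysm library, where 13% and 16.0% of 9237 genes were. In the room air library 9 of 31 were higher and 3 lower, where 11.9% and 18.6% of 8993 genes were. Median log2 ratios were 0.49 and 0.24, against 0.02 and -0.02 over all genes.

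In the aneurysm library Abcg1 was at 238 CPM in the lipid-associated-type cluster, 119 in the C1q-high cluster and 117 in the resident-type cluster. In the room air library it was at 280, 92.7 and 70.2 CPM in the same order. The lipid-associated-type level was 2.00-fold (1.74 to 2.31) and 3.03-fold (2.57 to 3.57) that of the C1q-high cluster in the aneurysm and room air libraries. Nr1h3 was at 67.3, 20.8 and 29.2 CPM across these clusters in the aneurysm library and at 49.4, 14.5 and 11.1 in room air, lipid-associated-type over C1q-high ratios of 3.24 (2.36 to 4.51) and 3.41 (2.26 to 5.24). Soat1 showed ratios of 2.14 and 1.70 in the aneurysm and room air libraries, and Lipa ratios of 1.63 and 1.72. Scd2 showed 2.00 and 2.10, Npc1 1.81 and 2.01, and Hmgcs1, the synthase at the entry to the mevalonate pathway, 1.74 and 1.83. The intervals of these 7 genes left out 1 in both libraries. The free RNA estimate was 51.0% and 50.8% of the UMIs of the C1q-high cluster in the aneurysm and room air libraries, against 20.1% and 25.7% in the lipid-associated-type cluster. With each subtracted, the lipid-associated-type over C1q-high ratio was 4.21 and 9.43 for Abcg1 and 8.80 and 9.04 for Nr1h3 in the aneurysm and room air libraries. At the B cell share it was 2.12 and 3.93 for Abcg1 and 3.54 and 4.35 for Nr1h3.

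Other genes were past 1.5-fold in 1 library. In the aneurysm library Lpcat3 was at 42.0 CPM in the lipid-associated-type cluster and 23.7 in the C1q-high cluster (1.78, 1.28 to 2.48), and Msmo1 at 41.3 and 25.7 (1.61, 1.17 to 2.22). Higher with intervals that include no difference were Mvk, 7.44 and 3.67 CPM, Mvd, 12.7 and 7.75, Nsdhl, 14.1 and 8.16, and Sc5d, 11.9 and 6.94. Acat2 was lower, at 5.95 and 8.98 CPM (0.663, 0.325 to 1.32). In the room air library Srebf1 was at 30.9 CPM in the lipid-associated-type cluster and 17.1 in the C1q-high cluster (1.80, 1.18 to 2.79), and Mylip at 56.9 and 36.0 (1.58, 1.17 to 2.14). Mvk, 4.34 and 7.03 CPM, and Cyp51, 5.42 and 11.4, were lower there, with intervals that include no difference. Mvk thus stood on opposite sides in the 2 libraries.

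Against the resident-type cluster, 15 of 30 genes were higher and 1 lower in the lipid-associated-type cluster of the aneurysm library, where 21.5% and 17.3% of 8399 genes were. In room air 12 of 26 were higher and 3 lower, where 26.4% and 19.1% of 7301 genes were. In both libraries the intervals left out 1 for Abcg1, Nr1h3, Lipa and Scd2, which were higher, and for Pltp, which was lower. The Abcg1 ratios were 2.03 and 4.00 in the aneurysm and room air libraries, and 2.46 and 14.5 with free RNA subtracted at each cluster's own share. In the resident-type cluster against the C1q-high cluster, 4 of 30 genes were higher and 6 lower in the aneurysm library, where 12.8% and 16.1% of 8323 genes were. In room air 5 of 30 were higher and 10 lower, where 15.7% and 22.6% of 7987 genes were.

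Some genes were low where Abcg1 was high. Srebf2 was at 10.8 CPM in the lipid-associated-type cluster and 20.8 in the C1q-high cluster of the aneurysm library, a ratio of 0.518 (0.317 to 0.833), and its ratio in room air was 0.561 (0.283 to 1.06). Pltp was at 517 and 784 CPM in these clusters of the aneurysm library (0.659, 0.615 to 0.707) and at 525 and 604 in room air (0.869). At the clusters' own free RNA shares the aneurysm ratios of Srebf2 and Pltp were 0.672 and 0.747, no longer past 1.5-fold. Pltp peaked in the resident-type cluster, 1.84-fold and 2.18-fold over the C1q-high cluster in the aneurysm and room air libraries, and Abca1 did so too, with ratios of 1.68 (1.34 to 2.09) and 1.76 (1.29 to 2.37). The 2 exporters had their highest macrophage levels in different clusters, although the room air intervals of Abca1 in the resident-type (150 to 260) and lipid-associated-type (137 to 174) clusters overlapped.

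**Figure D3:**
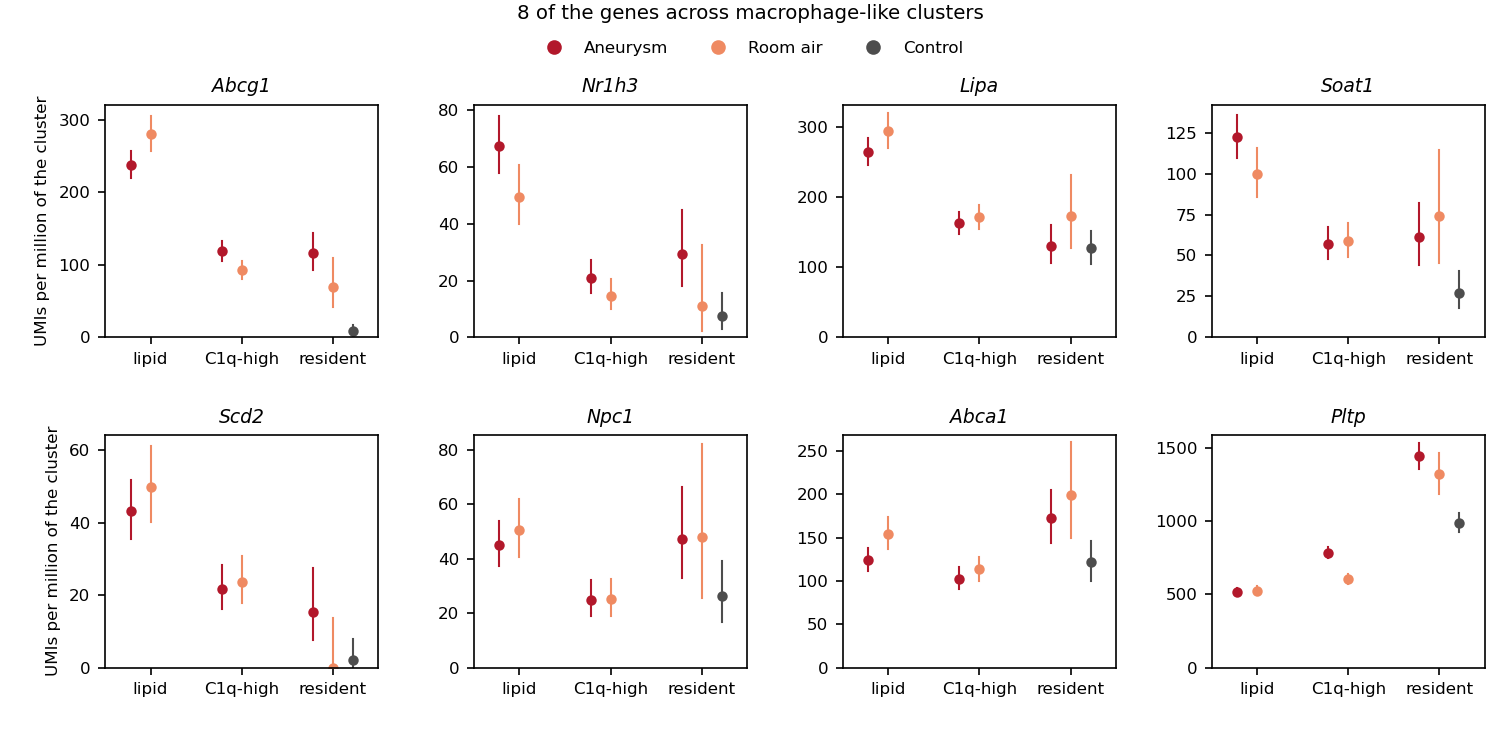
Level of 8 genes (UMIs per 1000000 of the cluster) in the lipid-associated-type, C1q-high and resident-type clusters of the aneurysm, room air and control libraries, with exact Poisson 95% intervals; clusters with under 25 cells in a library are not drawn. Abcg1, Nr1h3, Lipa, Soat1 and Scd2 are highest in the lipid-associated-type cluster of each Apoe-/- library, while Abca1 and Pltp are highest in the resident-type cluster.

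Between the aneurysm and room air libraries the 38 genes were close to level in macrophage-like cells. Of 36 that passed, 1 was higher and 2 lower past 1.5-fold, where 3.33% of 10460 genes were higher and 7.01% lower. Stard4 was higher, at 5.12 CPM in aneurysm and 3.19 in room air (1.61, 0.826 to 3.28). Sqle, squalene epoxidase, was at 1.71 and 2.96 CPM, 1.73-fold lower (0.703 to 4.42), and Mvd at 9.56 and 14.4 CPM, a ratio of 0.666 (0.457 to 0.971). The Mvd ratio lies at the edge of the size rule, and was 0.68 and 0.783 with free RNA subtracted at the class's own and the B cell share, and the Sqle and Stard4 intervals include no difference. Nr1h3 stopped just short, at 43.2 CPM in aneurysm and 28.9 in room air (1.49, 1.20 to 1.86). With free RNA subtracted its ratio was past 1.5-fold, 1.59 at the class's own share and 1.64 at the B cell share. Of the 253 aneurysm Nr1h3 UMIs, 36 were in 4 of 687 cells. The lipid-associated-type cluster, which had the most Nr1h3, held 304 of the 687 aneurysm cells and 202 of the 580 room air cells. The part of this mix in the Nr1h3 ratio was not tested. Abcg1 was at 173 and 170 CPM. The summed synthesis genes were at 293 CPM in aneurysm and 312 in room air, a ratio of 0.938 (0.873 to 1.01). The dissociation stress list, immediate early and heat shock genes, was at 1580 and 2031 CPM in these cells, and its part was not tested.

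Within clusters the same held. In the lipid-associated-type cluster 2 of 33 genes were higher and 0 lower past 1.5-fold, where 6.20% and 7.20% of 8880 genes were. These were Mvk, mevalonate kinase, at 7.44 CPM in aneurysm and 4.34 in room air (1.71, 0.723 to 4.50), and Fdft1, squalene synthase, at 5.21 and 3.25 (1.60, 0.578 to 5.08), whose exons overlap Ctsb on the other strand. Nr1h3 was at 67.3 CPM in aneurysm and 49.4 in room air (1.36, 1.05 to 1.77), and Soat1 at 122 and 99.8 (1.22, 1.02 to 1.47). The exporters were slightly lower, Abcg1 at 238 and 280 CPM (0.848, 0.754 to 0.954) and Abca1 at 124 and 155 (0.804, 0.684 to 0.945).

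In the C1q-high cluster 2 of 32 genes were higher and 3 lower, where 4.75% and 8.91% of 9261 genes were. Higher were Stard4, 5.71 CPM in aneurysm and 3.51 in room air, and Scap, 12.2 and 7.47. Lower were Mvk, 3.67 and 7.03 CPM, Sc5d, 6.94 and 12.3, and Mvd, 7.75 and 12.7, and the intervals of all 5 ratios include no difference. Abcg1 was here higher, 119 CPM in aneurysm and 92.7 in room air (1.28, 1.07 to 1.54, and 1.91 with free RNA subtracted at the cluster's own share), the opposite side from the lipid-associated-type cluster. In the resident-type cluster 2 of 15 genes were higher and 0 lower, where 15.2% and 11.5% of 5100 genes were. Abcg1 was at 117 CPM in aneurysm and 70.2 in room air (1.67, 1.00 to 2.90), with 25 of the 84 aneurysm UMIs in 4 of 92 cells, and the ratio was 5.01 with free RNA subtracted at the cluster's own share and 2.51 at the B cell share. Nr1h3 was at 29.2 and 11.1 CPM (2.64, 0.787 to 13.8), with 3 room air UMIs.

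**Figure D4:**
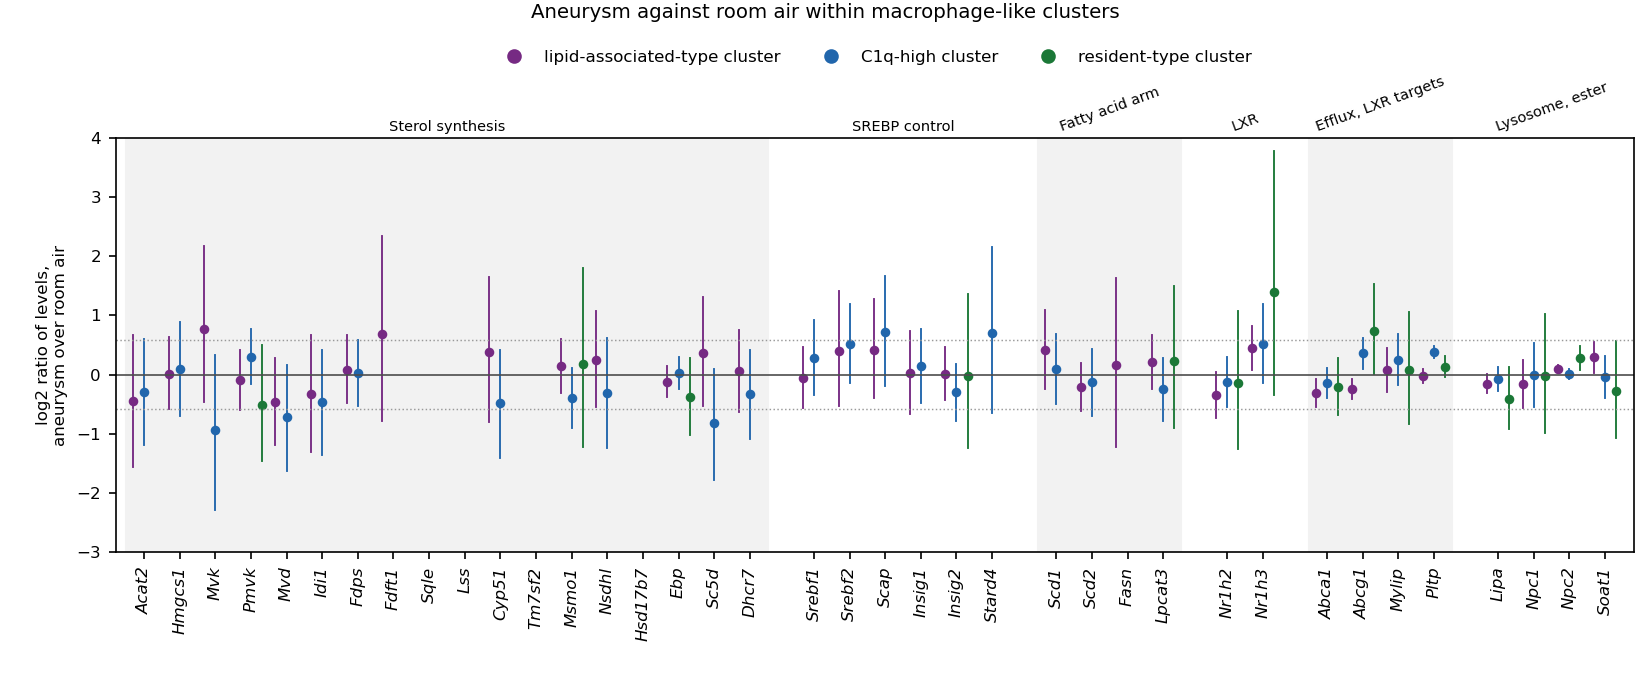
Log2 ratio of the level in aneurysm to that in room air for each gene with at least 20 UMIs, in 3 macrophage-like clusters; lines are 95% counting intervals and dotted lines mark 1.5-fold. Most points lie between the dotted lines, and the Nr1h3 point of the resident-type cluster, at 2.64-fold, has an interval from 0.787 to 13.8.

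Summed over all kept cells, 38 of 38 genes passed between aneurysm and room air, and 0 were higher and 0 lower past 1.5-fold, where 3.24% and 9.35% of 12210 genes were. The ratios ran from 0.763 to 1.43, the highest for Nr1h3. In such sums fewer cells of a type and less RNA per cell cannot be told apart.

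Outside the macrophages, Abcg1 was again higher in room air than in control in the T cell-like, B cell-like and monocyte-like classes, each taken whole. In T cell-like cells it was at 74.3 CPM in aneurysm, 106 in room air and 25.4 in control (room air over control 4.17, 1.74 to 13.1). The T cell-like class joined 3 clusters, and the one with the most Abcg1 in the aneurysm and room air libraries, led by Ccl5 and Gzmk, held 135 of 594 aneurysm cells, 249 of 421 room air cells and 8 of 97 control cells. In the other two clusters the room air to control ratio was 3.08 and 3.10, with intervals that include no difference, and 2.30 and 2.13 with free RNA subtracted. In B cell-like cells it was at 78.2, 107 and 34.1 CPM (3.15, 1.28 to 10.0), and in monocyte-like cells at 155, 125 and 45.1 CPM (2.78, 1.33 to 6.73). The control values rest on 5, 5 and 8 UMIs. Free RNA could account for up to 26.4%, 26.6% and 30.6% of the room air levels in T, B and monocyte-like cells, and the subtracted ratios were 3.25, 2.41 and 2.07. The monocyte-like class joined a cluster led by Chil3 and one led by Treml4 and Ace. With free RNA subtracted, control Abcg1 was at 6.29 CPM in the Chil3 cluster (room air over control 14.7), against 42.1 CPM in the whole class. The control level of the class thus came mainly from the Treml4 and Ace cluster, whose 20 control cells were too few to compare. Mature dendritic-like cells had 208 CPM of Abcg1 in aneurysm and 158 in room air, and the control library held 0 such cells.

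In T cell-like cells, 10 of 19 genes that passed were higher and 2 lower past 1.5-fold, where 40.4% of 5889 genes were higher and 7.25% lower. Besides Abcg1, the named ratios were Pltp, 84.4 CPM in room air and 25.4 in control (3.33, 1.38 to 10.5), and Scd2 and Abca1, each with 0 control UMIs. Against a floor of 3 control counts, room air was 2.57-fold higher for Scd2, from 44 UMIs, and 1.81-fold higher for Abca1, from 31 UMIs. These 2 values leave out the counting error of the room air counts. Free RNA could account for 97.6% of the room air T cell-like level of Pltp and 68.4% of that of Abca1, and its subtraction left no control level for Pltp, Scd2 or Abca1. In B cell-like cells 8 of 13 genes were higher and 1 lower, where 25.6% and 11.2% of 4067 genes were. Abca1 was at 64.7, 55.4 and 6.83 CPM in aneurysm, room air and control (room air over control 8.12, 1.36 to 331, from 1 control UMI). Nr1h2 was at 53.7 CPM in room air and 13.7 in control (3.93, 1.00 to 33.9), and Npc2 at 301 and 178 (1.70, 1.12 to 2.67), but free RNA could make up 64.7% of the room air level of Npc2, and after its subtraction the ratio turned to 0.80. Dissociation stress genes also differed between these libraries, at 748 CPM in room air and 330 in control T cell-like cells and at 795 and 410 in B cell-like cells, and their part was not tested.

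In monocyte-like cells 8 of 13 genes were higher and 2 lower past 1.5-fold, where 27.1% of 3894 genes were higher and 8.37% lower. Lipa was at 87.5, 162 and 62.0 CPM in aneurysm, room air and control cells, a room air to control ratio of 2.61 (1.38 to 5.44) and an aneurysm to room air ratio of 0.541 (0.408 to 0.721), so that the room air level stood above the other two. Abca1 had 64.7 CPM in room air and 0 UMIs in control, 3.83-fold higher against the floor of 3 counts, before the counting error of room air. Pltp was at 225 CPM in room air and 90.2 in control (2.49, 1.47 to 4.51), with free RNA at up to 50.4% of the room air level and a ratio of 5.54 with it subtracted at the class's own share and 2.41 at the B cell share. Fdps, farnesyl pyrophosphate synthase, was at 28.3 and 67.6 CPM, 2.39-fold lower (1.01 to 5.56), and Msmo1, sterol C4 methyl oxidase, at 22.3 and 62.0 CPM, 2.79-fold lower (1.10 to 7.09). Exons of Fdps overlap a predicted gene on the same strand. The monocyte-like class joined a Chil3 cluster and a Treml4 and Ace cluster, and in the Chil3 cluster Pltp was at 268 CPM in aneurysm, 153 in room air and 54.0 in control. The macrophage marker C1qa was at 732, 791 and 169 CPM in monocyte-like cells of aneurysm, room air and control. In the Chil3 cluster it was at 785, 862 and 139 CPM. The part of macrophage transcripts in the monocyte-like levels was not tested. Also in the Chil3 cluster, Ebp, sterol isomerase, was at 104, 166 and 108 CPM, 1.61-fold lower in aneurysm than in room air (1.18 to 2.17), and in the Treml4 cluster Soat1 was at 52.7 CPM in aneurysm and 138 in room air, 2.61-fold lower (1.07 to 6.76).

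B cell-like cells were the main site of Scd1. The level was 237 CPM in aneurysm (211 to 264), 170 in room air (138 to 207) and 68.3 in control (32.7 to 126), against 7.95, 8.88 and 0 CPM in T cell-like cells. B over T ratios were 29.8 (17.5 to 55.1) and 19.1 (9.97 to 41.1) in the aneurysm and room air libraries. Free RNA could account for only 1.52% and 3.52% of these B cell-like levels, and 222 of 458 aneurysm cells and 75 of 226 room air cells held at least 1 UMI. Room air was 2.49-fold above control (1.30 to 5.35). Abca1 was also higher in B than in T cell-like cells, 2.71-fold and 2.01-fold in the aneurysm and room air libraries.

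In mature dendritic-like cells (Ccr7, Fscn1), set against type 2 dendritic-like cells of the same library, more of the genes were lower than higher. In the aneurysm library 2 of 29 were higher and 18 lower past 1.5-fold, where 15.8% and 37.7% of 7375 genes were, with a median log2 ratio of -1.02 against -0.31 over all genes. In room air 2 of 21 were higher and 9 lower, where 17.4% and 35.8% of 5301 genes were, with a median of -0.54 against -0.25. The higher genes were Idi1 and Npc2 in both libraries. Idi1, isopentenyl diphosphate isomerase, whose promoter is printed above, was at 58.6 CPM in mature dendritic-like cells and 14.6 in type 2 dendritic-like cells of the aneurysm library, a ratio of 4.02 (2.31 to 7.01). In the room air library it was at 74.4 and 10.5 CPM, a ratio of 7.11 (2.96 to 18.3). Of the 29 aneurysm UMIs in mature dendritic-like cells, 17 were in 4 of 83 cells. Npc2 was 1.70-fold and 1.72-fold higher in mature cells of the aneurysm and room air libraries. Soat1 was lower, with ratios of 0.346 (0.18 to 0.61) and 0.131 (0.0155 to 0.494), and so was Msmo1, with ratios of 0.406 (0.157 to 0.883) and 0.308 (0.0608 to 0.968). In the aneurysm library Lipa was at 28.3 CPM in mature and 94.8 in type 2 dendritic-like cells (0.299, 0.16 to 0.514), Fdps at 14.2 and 40.1 (0.353, 0.137 to 0.763), and Lpcat3 at 14.2 and 39.1 (0.362, 0.141 to 0.784).

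In type 1 dendritic-like cells Fdps was at 146 CPM in aneurysm, 40.3 in room air and 36.3 in control, an aneurysm to room air ratio of 3.63 (2.06 to 6.90). In aneurysm 30 of 61 cells held at least 1 Fdps UMI, but the count was concentrated. Of the 92 UMIs, 55 came from 4 cells, 25 of them from 1 cell, and the other cells averaged 62.0 CPM. Idi1 was likewise at 31.8, 5.76 and 14.5 CPM, an aneurysm to room air ratio of 5.52 (1.34 to 48.7), with 12 of 20 aneurysm UMIs in 4 cells. The counting intervals of Fdps and Idi1 treat UMIs as independent and do not cover such clumping. The dividing cell list was at 317 CPM in aneurysm, 366 in room air and 254 in control type 1 dendritic-like cells. Npc2 in this class was at 1079, 954 and 595 CPM, 1.60-fold higher in room air than in control (1.25 to 2.06), and 1.35-fold with free RNA subtracted at the class's own share. In type 2 dendritic-like cells the aneurysm library had more Nr1h3, 17.2 against 5.81 CPM in room air (2.96, 1.15 to 9.70), more Mylip, 27.1 against 13.9 (1.94, 1.02 to 4.00), and less Mvd, 24.5 against 39.5 (0.619, 0.39 to 0.993). Of the 33 aneurysm Nr1h3 UMIs, 15 were in 4 of 270 cells, and the other cells averaged 9.51 CPM. With free RNA subtracted at the class's own share the Nr1h3 and Mylip ratios were 14.2 and 5.72, over room air levels of 0.787 and 3.11 CPM.

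In endothelial-like cells Scd2 was at 160 CPM in aneurysm, 158 in room air and 31.0 in control, 5.11-fold higher in room air than in control (1.78 to 20.1). Ebp was at 58.6 CPM in room air and 147 in control, 2.51-fold lower (1.11 to 6.04). The endothelial-like class held 26, 38 and 46 cells in aneurysm, room air and control. All 9 endothelial markers were detected in it, but only 1, Cldn5, was among its top 10 genes, beside Eln, Mgp, Fbln5 and Bgn. The sorted fractions shared 1 library, so the gate that each cell came from is not known. Pltp was lower in aneurysm than in room air in B, T, mature dendritic-like and endothelial-like cells, with ratios of 0.56, 0.444, 0.515 and 0.477. These levels were near the free RNA estimate. Subtraction at each class's own share left 1.37 CPM in aneurysm B cell-like cells, 1.85 CPM in room air mature dendritic-like cells and 103 CPM in room air endothelial-like cells, and nothing on the other side of these 3 ratios. In T cell-like cells free RNA could account for 98.2% and 97.6% of the aneurysm and room air Pltp levels, and the ratio after subtraction was 0.333 at the class's own estimated share and 29.2 at the share estimated in B cells. Scd2 in T cell-like cells was at 22.1 CPM in aneurysm and 39.1 in room air, 1.77-fold lower (1.12 to 2.79), and Ebp in B cell-like cells at 48.9 and 74.5 CPM, 1.53-fold lower (1.01 to 2.28), with a ratio of 0.765 once free RNA was subtracted, no longer past 1.5-fold.

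**Figure D5:**
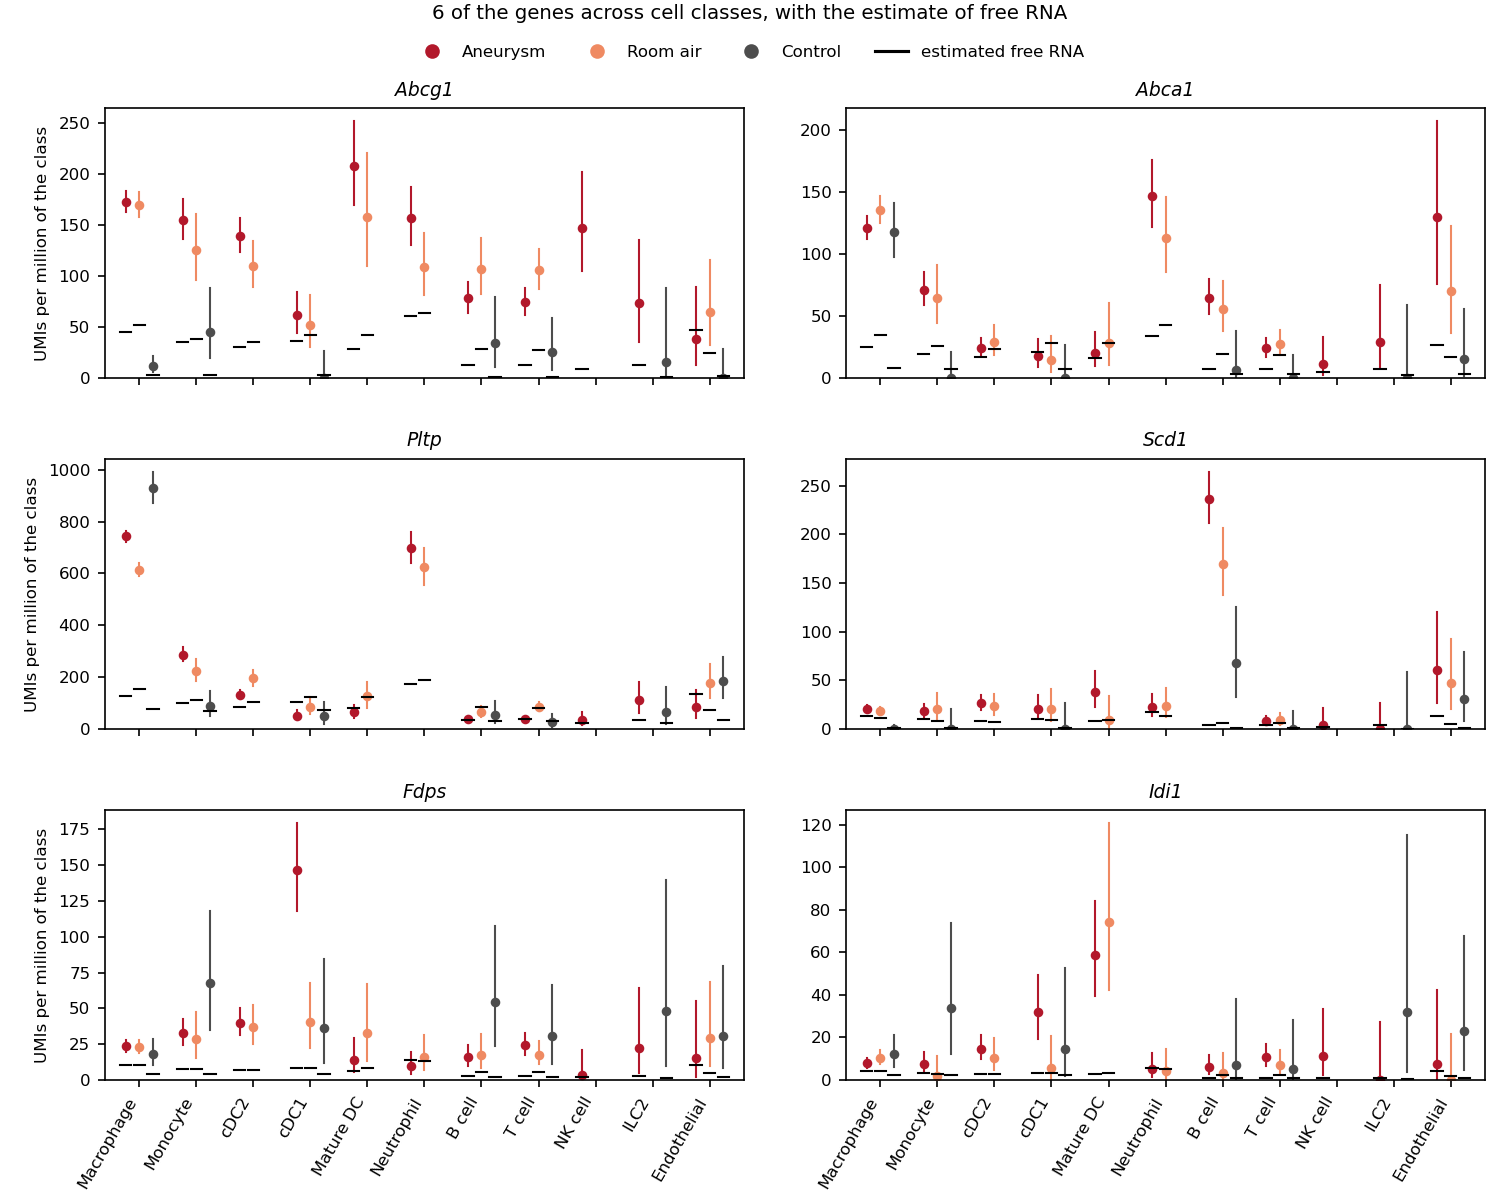
Level of 6 genes (UMIs per 1000000 of the class) for classes of 25 or more cells, in the aneurysm, room air and control libraries, with exact Poisson 95% intervals; black dashes give the estimated free RNA. Scd1 is highest in B cell-like cells, Fdps in aneurysm type 1 dendritic-like cells (146 CPM) and Idi1 in mature dendritic-like cells, while Pltp of lymphocytes sits near its free RNA level. Neutrophil-like cells carried the macrophage marker C1qa at 3372 CPM in aneurysm and 3822 in room air, against 4516 and 4695 in macrophage-like cells. The part of macrophage transcripts in the neutrophil-like levels was not tested.

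Other genes of these pathways were read from 3 lists in macrophage-like cells of room air against control. Over all 9535 genes of this comparison 25.4% were higher and 13.9% lower past 1.5-fold, with a median log2 ratio of 0.13. Of 22 further LXR, efflux and oxysterol genes, 19 passed, with 10 higher and 2 lower past 1.5-fold and a median log2 ratio of 0.60. The 4 with the most UMIs were Tspo, 835 CPM in room air and 567 in control (1.47), Lpl, lipoprotein lipase, 376 and 231 (1.63), Smpdl3a, a phosphodiesterase (1.99), and Arl4c, a small GTPase (3.58). Of 12 further sterol synthesis and SREBP2 genes, 10 passed, with 2 higher and 2 lower and a median of -0.07. Of 10 further fatty acid genes, 5 passed, with 0 higher and 2 lower and a median of 0.07. These values are of the whole class, without free RNA subtracted, and Lpl is also on the lipid-associated macrophage list. The part of the different macrophage mix of the room air and control libraries in them was not tested. In aneurysm against room air 0 genes of these lists were past 1.5-fold in either direction, with medians of -0.20, -0.09 and -0.15 in the same order. Over all 10460 genes there, 3.33% were higher and 7.01% lower, with a median of -0.02.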

How the data were processed

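Gene by cell matrices of UMI counts, raw and not normalized, were deposited by the authors for 3 libraries of 10x Genomics 3′ v2 chemistry. Cell Ranger, STAR and the mm10 build are named in the submitters' processing notes, and versions, the annotation and the strand setting are not given in the sources used here. Barcodes with at least 200 genes and at most 10% mitochondrial UMIs were kept (2839, 1848 and 778 in the aneurysm, room air and control libraries, against 2685, 1736 and 738 cells stated). Scrublet's automatic threshold marked 0, 2 and 1 barcodes, so the top-scored 64, 27 and 5 were removed, at 0.8% per 1000 barcodes. Shared barcode sequences numbered 5 between aneurysm and room air, 4 between room air and control and 0 between aneurysm and control.

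Cells were clustered in scanpy 1.11.5 on 2000 variable genes without the 38 genes, related pathway genes and Apoe (30 components, 15 neighbours, Leiden resolution 1), giving 22 clusters. A cluster was named "-like" from a mean marker score of at least 0.6, with at least 3 markers each detected in at least 10% of its cells. Clusters with several dividing-cell genes among their top 10 genes were left unnamed. Macrophage clusters were split at a list score of 1. Both score limits were set after the clusters were seen, and 3 clusters stayed unnamed. Among these, a Cd163l1 cluster scored 2.73 with only 2 markers detected, the dividing-cell cluster scored 0.97 and a Retnla cluster 0.52. Apart from Pf4, a platelet marker that is also on the resident macrophage list, none of the top 10 genes of the macrophage clusters was a marker of another class. Counts were summed per library and class. A count of 0 was set to a floor of 3 over the class for a bound. Intervals and floors have a confidence level of 95% and cover counting error only. The floor covers the count of 0 alone, so a ratio over it is not a 95% limit. Free RNA was estimated per class from other classes' markers and the library's profile, and the subtraction at the B cell share was chosen after seeing the data.

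The 38 genes, the other lists and the markers were chosen with earlier results of these data known. In macrophage comparisons between libraries, and of lipid-associated-type with C1q-high cells, every gene of the 38 past 1.5-fold with at least 20 UMIs is named; in other comparisons of classes within a library, genes were chosen after their values were seen; in other classes at most 10 per class whose interval leaves out 1; of other lists the 4 with the most UMIs. Genes singled out beside this rule, such as Abca1 in macrophages, were chosen after their values were seen. Alternatives were other clusterings (resolution 0.5 and 1.5, all variable genes), doublets kept, classes from each cell's own markers, TMM (edgeR 4.0.16) and median-of-ratios scaling, UMI minimums of 1 and 50, equal weight per cell, free RNA subtracted, and macrophages without the resident-type cluster. The scripts were tested on simulated data.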

Additional observations from a re-analysis of the deposited data

Results flagged for a closer look

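Abcg1 in aneurysm against room air was higher in resident-type macrophage-like cells, with a ratio of 1.67 (1.00 to 2.90), and lower in a T cell-like cluster, with a ratio of 0.485 (0.279 to 0.863). It was picked out because the 2 intervals lie on opposite sides of 1. Each ratio compares 1 library with 1 library, and the difference between the ratios was not tested. With free RNA subtracted at each cluster's own share the ratios were 5.01 and 0.51.

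Pltp in aneurysm against room air was higher in the Chil3 monocyte-like cluster, with a ratio of 1.75 (1.33 to 2.34), and lower in the same T cell-like cluster, with a ratio of 0.389 (0.21 to 0.732). In room air against control Pltp was higher in that T cell-like cluster, at 4.20-fold (1.02 to 37.1), and lower in macrophage-like cells, with a ratio of 0.661 (0.613 to 0.713). These differences were not tested. With free RNA subtracted the ratio in the Chil3 cluster was 4.07 at the cluster's own share and 3.38 at the B cell share. The macrophage marker C1qa was at 785 CPM in aneurysm and 862 in room air cells of the Chil3 cluster. The part of macrophage transcripts there was not tested. In that T cell-like cluster, subtraction at its own share left 1.55 CPM of Pltp in aneurysm and 7.23 in room air, a ratio of 0.214, and nothing in control. At the B cell share nothing was left in aneurysm either. Over all T cell-like cells the Pltp level was close to the estimated free RNA, which could account for 98.2% of it in aneurysm and 97.6% in room air.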

How the results depend on the processing

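No paired analysis was possible because each group has 1 library, and for the same reason no replicate was left out. Comparisons between libraries and gene values of macrophage-like cells and their clusters were recomputed under the alternatives: 163 summary results and 1795 gene values stayed within their limits, 36 and 51 moved, and 2 and 0 reversed. Only a sum or gene value whose counting interval excluded equal levels, and for a gene one past 1.5-fold, was counted as reversed. Of the other values, 19 summary results and 127 gene values changed sign. Causes were not tested.

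In macrophage-like cells of room air against control, subtracting free RNA left 8 genes higher (13 without it) and 10 lower (5), and clustering with all variable genes left 3 lower. The median log2 ratio of the synthesis genes became -0.28 (from 0.15) with free RNA subtracted, and that of their sum reversed from 0.19 to -0.29, or to -0.069 at the B cell share. Without the resident-type cluster no value could be had, with 18 control cells left. With free RNA subtracted at the class's own share, Lipa (ratio 1.43), Nr1h2 (1.44), Lpcat3 (1.45), Mylip (1.25) and Sc5d (1.06) were no longer past 1.5-fold. The log2 ratio of Scd1 against its floor was 1.28 (from 2.59).

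In macrophage-like cells of aneurysm against room air, 1 gene was higher in the reported setting. This became 2 with doublets kept, at resolution 0.5, with classes from each cell's markers, with TMM or median-of-ratios factors, or without the resident-type cluster, 0 at a minimum of 50 UMIs, and 5 with free RNA subtracted at either share. Those 5 were Stard4, Fdft1, Scap, Srebf2 and Nr1h3. The 2 lower genes became 4 with classes from each cell's markers. They became 1 at resolution 0.5, with TMM or median-of-ratios factors, at 50 UMIs, with free RNA at the B cell share, or without the resident-type cluster. The median of the synthesis genes became 0.091 (from -0.10) at the B cell share, and their sum became 0.018 with free RNA subtracted and 0.12 at the B cell share (from -0.09). At that share the synthesis sum was 0.19 (from -0.01) in the lipid-associated-type cluster and 0.078 (from -0.13) in the C1q-high cluster.

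In resident-type cells of room air against control, the 8 higher genes became 13 at resolution 0.5, where the cluster took in the C1q-high cells, 1 at a minimum of 50 UMIs, where fewer genes were compared, and 5 with free RNA subtracted. The 2 lower genes became 4 with all variable genes, with median-of-ratios factors or with free RNA subtracted at either share, 1 at resolution 1.5, 0 at 50 UMIs and 9 at 1 UMI. The synthesis sum became -0.52 (from 0.08) with free RNA subtracted. The shallow control library limits these comparisons: 12 UMIs carry its macrophage-like Abcg1 level.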

Other observations

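An unnamed cluster led by dividing-cell genes held 45 aneurysm, 38 room air and 23 control cells. In it Srebf2 was at 38.4 CPM in aneurysm and 7.11 in room air (5.41, 1.63 to 28.2, from 3 room air UMIs). Lower in aneurysm than in room air were Abca1, at 26.2 and 78.2 CPM (2.98-fold, 1.58 to 5.91), Lipa, at 66.4 and 175 (2.64-fold, 1.76 to 4.02), and Pltp, at 157 and 384 (2.44-fold, 1.88 to 3.19). Pltp was held by 22 of the 45 aneurysm cells and Lipa by 24 of the 38 room air cells, but 48 of 90 aneurysm Pltp UMIs and 34 of 74 room air Lipa UMIs were in 4 cells each. Macrophage markers of this cluster were lower too, with C1qa at 1127 CPM in aneurysm and 3323 in room air, C1qb at 1459 and 4098, and Adgre1 at 105 and 263, and the part of the mix of dividing cells was not tested.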
